A study of Mus musculus with 175 samples.

Results

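The alpha and beta globin genes were examined in single progenitor cells of the mouse fetal liver. The 7 members, chosen by their symbols in the deposited gene annotation, were the adult alpha-type genes Hba-a1 and Hba-a2, the embryonic alpha-type gene Hba-x, the adult beta-type genes Hbb-bs and Hbb-bt, and the embryonic beta-type genes Hbb-bh1 and Hbb-y. They are 7 of 49585 mouse features counted, and all 7 had reads in at least 1 population. Of the 13 globin genes and pseudogenes in the annotation, Hbq1a, Hbq1b, Hbb-bh0, Hbb-bh2 and Hbb-bh3 had 0 reads in every cell kept.

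Hemoglobin is a tetramer of alpha-type and beta-type chains, which bind heme. In the mouse the alpha-type genes lie together on chromosome 11 and the beta-type genes on chromosome 7, and each cluster is driven by distant enhancers. The embryonic genes are known from the primitive red cells of the yolk sac, and the adult genes from the definitive red cells that the fetal liver makes. Hba-x codes for zeta globin, Hbb-y for epsilon-y globin and Hbb-bh1 for beta-h1 globin.

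Cells came from E14.5 fetal livers (14.5 days post fertilization) of embryos with 1 copy of the Runx1 reporter P1-GFP::P2-hCD4, whose human CD4 reports the use of the P2 promoter. A label field spells the allele with P2-GFP in place of P1-GFP. Males with the reporter were mated to wild type ICR females, and the labels give the strain as C57BL/6 crossed with ICR. All cells were lineage negative, SCA1-, C-KIT+, CD16/32low, CD41- and CD150+, MEPs (megakaryocyte-erythroid progenitors) being CD34- and CMPs (common myeloid progenitors) CD34+. Each gate was divided by hCD4 into cells without it (P2-) and cells with it (P2+), which gives 4 populations. The labels call the CMPs low and high, which was read as P2- and P2+, and 1 P2- CMP bears a subtype label of MEP.

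Livers of 2 litters were pooled, so each population is 1 sample without a replicate, and no difference between populations was tested. Of 175 cells 172 were kept, the MEPs being 56 P2- and 47 P2+ cells and the CMPs 27 P2- and 42 P2+ cells. A cell had between 295064 and 1540631 reads on mouse genes, with medians of 520540, 624148, 637603 and 804632 in these populations in that order. Levels are CPM, the reads of a gene per 1000000 reads on mouse genes, pooled over the cells of a population. Intervals are at 95% and cover counting error only, since the protocol counts PCR copies as reads and cells of 1 pool are not replicates. Of 12 erythroid markers, both MEP populations had reads of all 12, the P2- CMPs of 11 and the P2+ CMPs of 9. Their summed level was 2218 CPM in the P2- MEPs, 1131 CPM in the P2+ MEPs, 640 CPM in the P2- CMPs and 361.6 CPM in the P2+ CMPs.

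The globin genes come in near-identical copies, and this decides which reads could be counted. Hbb-bs lies at chr7:103826534-103828096 and Hbb-bt at chr7:103812524-103813996, both on the minus strand of GRCm38 and both with 3 exons. Their coding sequences of 441 bases are identical at 440 positions. The stretch around the difference is shown, with the differing base (C417T, counted from the first base of the coding sequence, Hbb-bs first) in capitals. It lies in exon 3 of each gene, at chr7:103826668-103826722 and chr7:103812659-103812713.
Hbb-bs: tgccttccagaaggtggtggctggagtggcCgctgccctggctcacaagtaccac
Hbb-bt: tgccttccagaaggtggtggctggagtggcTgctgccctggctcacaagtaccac

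Hba-a1 at chr11:32283511-32284465 and Hba-a2 at chr11:32296489-32297298, both on the plus strand with 3 exons, are as close to each other. Their coding sequences of 426 bases are identical at 425 positions, and the difference is C381T, with Hba-a1 first. It too lies in exon 3, at chr11:32284313-32284373 and chr11:32297130-32297190.
Hba-a1: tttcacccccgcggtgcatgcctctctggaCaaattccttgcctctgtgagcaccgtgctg
Hba-a2: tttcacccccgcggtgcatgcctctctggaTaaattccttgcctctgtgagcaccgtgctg

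The embryonic genes have no such copy. Hbb-bh1 at chr7:103841637-103843164 and Hbb-y at chr7:103851749-103853216 share 76.4% of aligned coding bases with each other, and Hba-x at chr11:32276400-32278116 shares 63.9% with Hba-a1. A read of 70 bases, the longest that trimming left, was used as the measure of what can be told apart. Of the 70-base stretches of the transcript, 86.3% for Hba-a1 and 82.3% for Hba-a2 also occur in the other alpha copy. The shares were 64.6% for Hbb-bs and 56.9% for Hbb-bt, each with the other. For Hba-x, Hbb-bh1 and Hbb-y the share was 0%. Only 86 stretches are left to each of Hba-a1 and Hba-a2, against 198 for Hbb-bs, more for Hbb-bt and 544 to 732 for the embryonic genes. No globin exon overlaps an exon of another gene. Between 9.84% and 10.8% of the reads of a population aligned to more than 1 place and were counted for no gene. How many of these came from globins was not tested. Reads that fell wholly in a shared stretch are missing from the levels of the adult genes, though a pair of reads could still be placed by its other mate.

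**Figure D1:**
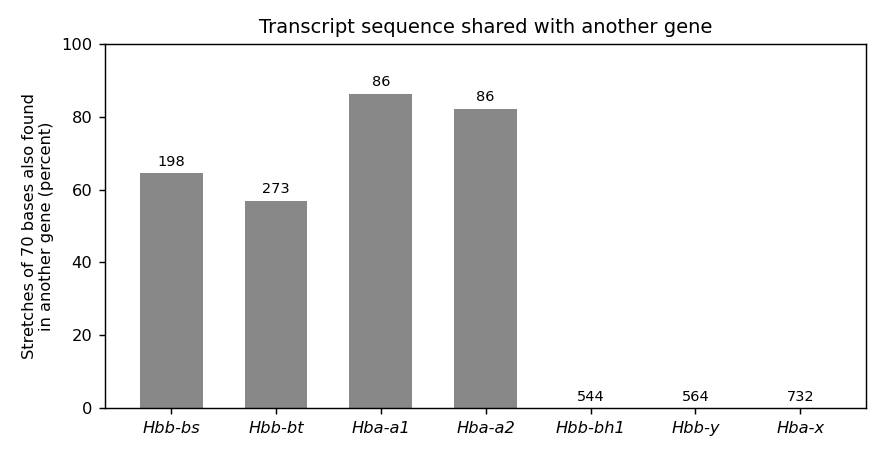
Bars give the percentage of all 70-base stretches of each globin transcript that are also found in another gene, and the number above a bar is the count of stretches of its own. The 4 adult genes share between 56.9% and 86.3% and the 3 embryonic genes 0%.

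Mouse strains also differ in the haplotype of their adult beta-type genes. The reference genome carries the C57BL/6 haplotype, with Hbb-bs and Hbb-bt. Which haplotype the ICR parent carried is not given in the sources used here, and how reads of another haplotype were placed on these copies was not tested.

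Hbb-bs was a gene of the MEPs in these counts. In single P2- MEPs it ran from 0 to 1151 CPM and in the P2+ MEPs from 0 to 1393 CPM, with a median of 0 CPM in each. The highest P2- CMP had 17.8 CPM and the highest P2+ CMP 23.4 CPM. Among the MEPs, 26 of 56 P2- and 19 of 47 P2+ cells had a read of Hbb-bs, and among the CMPs 3 of 27 P2- and 4 of 42 P2+ cells did. Most MEPs thus had no read of it, and the CMPs with a read lay at the low end of the MEP range.

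Pooled, Hbb-bs was at 65.6 CPM (62.7-68.5) in the P2- MEPs and 110.8 CPM (107.2-114.6) in the P2+ MEPs. P2- CMPs had 0.545 CPM (0.262-1.003) and P2+ CMPs 0.605 CPM (0.379-0.916). The log2 ratio of P2- CMPs over P2- MEPs was -6.91 (-7.97 to -6.03), and that of P2+ CMPs over P2+ MEPs was -7.52 (-8.19 to -6.92). Within the MEPs, Hbb-bs was higher in the P2+ cells by a log2 ratio of 0.76 (0.68-0.84), which fell to 0.14 when ERCC spike-in reads were used as the denominator. Few cells carried these reads. In P2- MEPs 1 cell held 50.97% of the Hbb-bs reads, and the level was 33.1 CPM without it. In P2+ MEPs 1 cell held 36.1%, and the level was 73.0 CPM without it. Leaving out the cell of highest CPM in each population, which among the P2+ MEPs is another cell than the one with most reads, gave a log2 ratio of 1.40, past 2-fold. In the CMPs 1 cell held 70% of the 10 P2- reads and 1 cell 77.3% of the 22 P2+ reads, and the levels without these cells were 0.167 and 0.140 CPM. Only 5 P2- MEPs and 4 P2+ MEPs reached 100 CPM.

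Hbb-bt had the opposite distribution. In P2- CMPs it ran from 0 to 1532 CPM with a median of 20.3 CPM, and in the P2+ CMPs from 0 to 638.9 CPM with a median of 65.1 CPM. In P2- MEPs the highest cell had 136.4 CPM and in the P2+ MEPs 103.5 CPM, with medians of 0 CPM. Among the CMPs, 15 of 27 P2- and 35 of 42 P2+ cells had a read of Hbb-bt, and among the MEPs 19 of 56 P2- and 16 of 47 P2+ cells did. It was the globin found in most CMPs.

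Pooled, Hbb-bt was at 9.51 CPM (8.45-10.7) in the P2- MEPs, 9.79 CPM (8.73-10.9) in the P2+ MEPs, 232.2 CPM (225.3-239.3) in the P2- CMPs and 120.6 CPM (117.1-124.3) in the P2+ CMPs. The log2 ratio of P2- CMPs over P2- MEPs was 4.61 (4.44-4.79) and that of P2+ CMPs over P2+ MEPs 3.62 (3.46-3.79). Between the P2+ and P2- MEPs the log2 ratio was 0.04 (-0.19 to 0.28), and it ranged from -0.58 to 0.10 over the other ways of computing it. Between the CMPs it was -0.95 (-1.01 to -0.88). The pooled level and the share of cells went opposite ways in the CMPs. After each cell was thinned to 100000 reads, 51.9% of P2- CMPs (31.9-71.3) and 76.2% of P2+ CMPs (60.5-87.9) had a read of Hbb-bt. Among the CMPs with a read, the median was 261.9 CPM in the P2- cells and 102.2 CPM in the P2+ cells. No order of the CMPs was read from these shares. A single P2- CMP held 28.5% of the reads, and the level without it was 173.6 CPM.

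**Figure D2:**
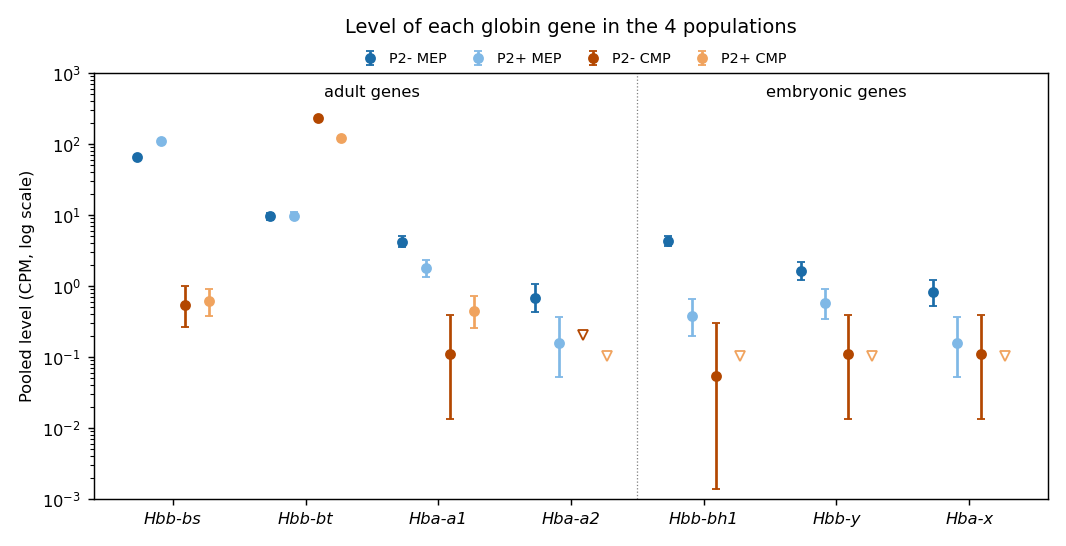
Pooled level in CPM (log axis) of each globin gene in the 4 populations, with exact 95% Poisson intervals from counting error. Open triangles mark the upper limit of a gene with 0 reads. Hbb-bs is higher in MEPs and Hbb-bt higher in CMPs, and the other 5 genes lie at or below 4.31 CPM in every population.

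Hbb-bt thus made up 12.7% (11.3-14.1) of the Hbb-bs and Hbb-bt reads in the P2- MEPs, 8.11% (7.27-9.03) in the P2+ MEPs, 99.8% (99.6-99.9) in the P2- CMPs and 99.5% (99.2-99.7) in the P2+ CMPs. Without the P2- MEP of most reads of the pair, a value added after the data were seen, the share in the P2- MEPs was 20.7% (18.5-23.1). Among cells with at least 10 reads of the pair, the CMPs showed the same split and the MEPs were mixed. Of 24 such P2- MEPs, 14 had at most 10% Hbb-bt and 3 had at least 90%. Among 25 P2+ MEPs these counts were 15 and 6. Of 15 P2- CMPs, 14 had at least 90% Hbb-bt and 0 had at most 10%, and all 34 such P2+ CMPs had at least 90%.

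Within single MEPs the genes were found together in some cells and alone in others. In P2- MEPs 12 cells had reads of both, 14 of Hbb-bs alone and 7 of Hbb-bt alone. In P2+ MEPs 7 had both, 12 Hbb-bs alone and 9 Hbb-bt alone. No CMP had Hbb-bs alone, and the 3 P2- CMPs and 4 P2+ CMPs with Hbb-bs also had Hbb-bt. Spearman's rho between the CPM of the pair was 0.29 over 56 P2- MEPs, 0.05 over 47 P2+ MEPs, 0.38 over 27 P2- CMPs and 0.36 over 42 P2+ CMPs, as a description of cells that share a pool. The sum of the pair thus hides a difference that runs between the CD34 gates.

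**Figure D3:**
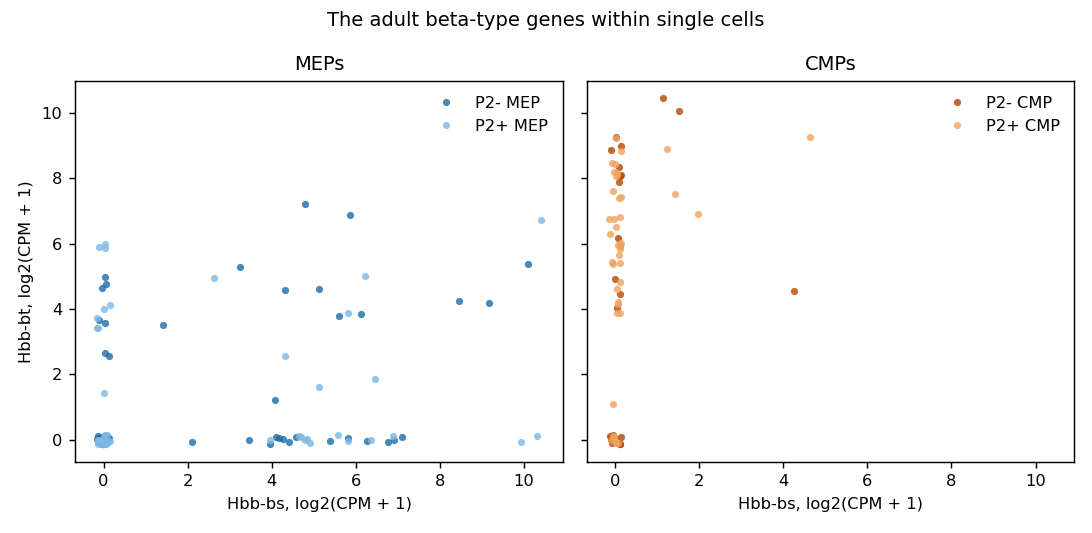
Each point is a cell, with log2(CPM + 1) of Hbb-bs on the x axis and of Hbb-bt on the y axis, moved by a small random step so that points at 0 can be seen. MEPs spread along both axes, while CMPs lie along the Hbb-bt axis and 7 of them have a read of Hbb-bs.

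Because the levels of Hbb-bs and Hbb-bt differ so between MEPs and CMPs, 30 bases before each start are shown. Both stretches are on the minus strand, from -111 to -82 relative to the start in RefSeq (GRCm38.p6), at chr7:103828010-103828039 and chr7:103814005-103814034. A second GENCODE transcript of Hbb-bs begins further upstream, and its first exon covers 28 of the 30 bases for Hbb-bs. Capitals mark CACCC, the core of the box that Klf1 is known to bind in the beta-globin promoter.
Hbb-bs: aagcctgattccgtagagccaCACCCtggt
Hbb-bt: gaagcctCACCCtgcagggtaaCACCCtgg

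Unlike the coding sequences, the 250 bases before the starts differed, with 69.3% of aligned positions identical for Hbb-bs and Hbb-bt, against 97.6% for Hba-a1 and Hba-a2. CACCC, searched on both strands, occurred once in the Hbb-bs promoter at -90 and at -140, -104 and -89 in that of Hbb-bt. It is found in 52.01% of the 32851 RefSeq promoters of this length. AGATAA, a form of the GATA site, occurred in the Hbb-bs promoter at -210 and not in that of Hbb-bt, and 9.99% of all promoters hold it. The longer form CCNCNCCC, which can overlap CACCC, occurred once in each, at -93 and -107, and is found in 45.9% of all promoters. CCAAT was at -76 in Hbb-bs and at -80, -75 and -36 in Hbb-bt, with a background of 33.8%, and TATAA was at -29 in Hbb-bs and at -229 and -28 in Hbb-bt, with a background of 22.8%. These matches describe letters, not sites in use. Promoters were matched for 6 of the 7 globins.

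The adult alpha-type genes were low wherever they were read. Hba-a1 ran from 0 to 34.7 CPM in the P2- MEPs and from 0 to 31.8 CPM in the P2+ MEPs, and the highest CMPs had 5.57 CPM and 8.88 CPM in the P2- and P2+ cells. The medians were 0 CPM in all 4 populations. It had a read in 25 of the 56 P2- and 11 of the 47 P2+ MEPs, and in 1 of the 27 P2- and 5 of the 42 P2+ CMPs. After thinning to 100000 reads, 25% of P2- MEPs had a read of Hba-a1, against 39.3% for Hbb-bs.

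Pooled, Hba-a1 was at 4.21 CPM (3.52-5.01) in the P2- MEPs, 1.77 CPM (1.34-2.30) in the P2+ MEPs, 0.109 CPM (0.0132-0.394) in the P2- CMPs and 0.440 CPM (0.252-0.715) in the P2+ CMPs. P2+ MEPs were lower than P2- MEPs, with a log2 ratio of -1.25 (-1.73 to -0.79). For P2+ over P2- CMPs it was 2.01 (-0.08 to 5.18), from 16 and 2 reads, and its interval includes 0. A single P2+ MEP held 42.9% of the reads there, and the level was 1.04 CPM without it.

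Hba-a2 had 21 reads in 9 P2- MEPs, 5 reads in 1 P2+ MEP and 0 reads in the CMPs. The levels were 0.686 CPM (0.425-1.05) and 0.158 CPM (0.0514-0.370) in the MEPs, and 0 reads allow up to 0.201 CPM in the P2- CMPs and 0.101 CPM in the P2+ CMPs. P2+ over P2- MEPs gave a log2 ratio of -2.12 (-3.88 to -0.67). Hba-a1 took 86.0% (79.4-91.1) of the reads of the copies in the P2- MEPs and 91.8% (81.9-97.3) in the P2+ MEPs, and each copy has the same number of stretches of its own.

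The embryonic globins were found mainly in the P2- MEPs. Hbb-bh1 ran from 0 to 111.9 CPM in the P2- MEPs, from 0 to 17.2 CPM in the P2+ MEPs and from 0 to 0.984 CPM in the P2- CMPs, with medians of 0 CPM, and no P2+ CMP had a read. A read was found in 17 P2- and 5 P2+ MEPs and in 1 P2- CMP. The pooled levels were 4.31 CPM (3.61-5.11), 0.380 CPM (0.196-0.664) and 0.0545 CPM (0.00138-0.304), with an upper limit of 0.101 CPM in the P2+ CMPs. The log2 ratio of P2+ over P2- MEPs was -3.50 (-4.49 to -2.65), the lowest of the 7 globins in that comparison. Of the Hbb-bh1 reads of P2- MEPs, 43.9% lay in 1 cell, and the level was 2.46 CPM without it. In P2+ MEPs 58.3% lay in 1 cell, and the level was 0.160 CPM without it.

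Hbb-y lay below Hbb-bh1 in the pooled P2- MEPs. It had 18 reads against 12 of Hbb-bh1 in the P2+ MEPs and 2 against 1 in the P2- CMPs. The intervals of the pair overlapped in both, so no order of these genes was read there. Hbb-y reached 36.1 CPM in the highest P2- MEP, 15.004 CPM in the highest P2+ MEP and 1.36 CPM in the highest P2- CMP, with medians of 0 CPM. Reads were found in 19 of the 56 P2- and 9 of the 47 P2+ MEPs, in 2 P2- CMPs and in 0 of the 42 P2+ CMPs. Pooled, these were 1.63 CPM (1.21-2.15), 0.570 CPM (0.338-0.901), 0.109 CPM (0.0132-0.394) and 0 CPM. For P2+ over P2- MEPs the log2 ratio was -1.52 (-2.38 to -0.72).

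Hba-x, the embryonic alpha-type gene, followed the same order of populations. It had 25 reads in 11 P2- MEPs (0.817 CPM, 0.529-1.21), 5 reads in 5 P2+ MEPs (0.158 CPM, 0.0514-0.370), 2 reads in 2 P2- CMPs (0.109 CPM, 0.0132-0.394) and 0 reads in the P2+ CMPs. The log2 ratio of P2+ over P2- MEPs was -2.37 (-4.11 to -0.96). The summed embryonic globins were at 6.76 CPM (5.87-7.75) in the P2- MEPs and 1.11 CPM (0.772-1.54) in the P2+ MEPs, a log2 ratio of -2.61 (-3.17 to -2.09). A single P2+ MEP held 40% of its 35 embryonic reads, and the level of the sum was 0.674 CPM without it. In P2- MEPs 28.5% lay in 1 cell, and the level was 4.92 CPM without it.

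**Figure D4:**
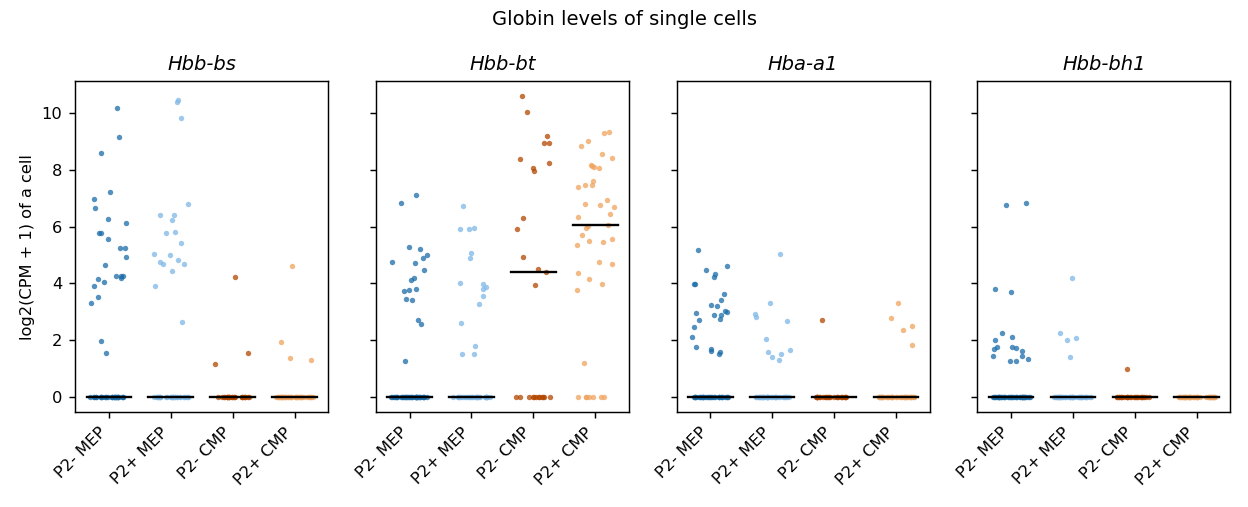
Level of 4 globin genes in single cells as log2(CPM + 1), by population, with the median as a black line and points spread sideways at random. Hbb-bs reaches its highest values in MEPs and Hbb-bt in CMPs, and Hbb-bh1 is above 100 CPM in 2 P2- MEPs only.

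Embryonic genes were a minor share of the beta-type reads. Hbb-bh1 and Hbb-y made up 182 of 2480 beta-type reads in the P2- MEPs, or 7.34% (6.34-8.44), and 30 of 3838 in the P2+ MEPs, or 0.782% (0.528-1.11). In P2- CMPs they were 3 of 4271 reads, or 0.0702% (0.0145-0.205), and in the P2+ CMPs 0 of 4407, which allows up to 0.0837%. The share depends on how cells are weighted. The mean of the shares of single cells was 31.96% in the P2- MEPs and 15.4% in the P2+ MEPs, where every cell with a beta-type read counts alike. Of the cells with an embryonic read, 9 P2- MEPs and 2 P2+ MEPs had no read of an adult globin. Without the cell of highest beta-type CPM the pooled shares were 12.5% in the P2- MEPs and 1.21% in the P2+ MEPs. P2- MEPs had the higher share under each of these. The adult genes share stretches with a copy and the embryonic genes do not, and how far the shares would fall with the missing reads was not tested.

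Among the embryonic beta-type reads Hbb-bh1 made up 72.5% (65.4-78.9) in the P2- MEPs and 40% (22.7-59.4) in the P2+ MEPs, or 59.7% and 29.4% without the cell of most such reads. Of 56 P2- MEPs, 9 had reads of both embryonic beta-type genes, 8 of Hbb-bh1 alone and 10 of Hbb-y alone. Embryonic and adult globins were read together in some cells. Of the 31 P2- MEPs with an embryonic read 22 also had an adult globin read, as did 22 of the 25 without one. In P2+ MEPs 10 of the 12 with an embryonic read had an adult read, as did 25 of the 35 without one. Whether the embryonic and adult reads go together was not tested. No embryonic globin was read in 25 P2- and 35 P2+ MEPs or in 22 P2- and all 42 P2+ CMPs.

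Levels of different genes were compared per kilobase of exon. In P2- MEPs the order was Hbb-bs at 85.4 CPM per kilobase, Hbb-bt at 13.5, Hbb-bh1 at 7.04, Hba-a1 at 5.19, Hbb-y at 2.58, Hba-a2 at 1.03 and Hba-x at 0.871. The counting intervals of Hbb-bh1 and Hba-a1 overlapped, and so did those of Hba-a2 and Hba-x. Per 1000 stretches of each gene's own, a scaling added after the data were seen, the order changed to Hbb-bs at 331.2 CPM, Hba-a1 at 49.01, Hbb-bt at 34.8, Hba-a2 at 7.98, Hbb-bh1 at 7.93, Hbb-y at 2.90 and Hba-x at 1.12. Hba-a2, with 21 reads, and Hbb-bh1 were too close by this scaling to be ordered. In P2- CMPs Hbb-bt stood at 330.4 CPM per kilobase and every other globin at or below 0.710. Beta-type genes together exceeded alpha-type genes per kilobase by 15.3 times in the P2- MEPs, 61.7 times in the P2+ MEPs, 1322 times in the P2- CMPs and 318.01 times in the P2+ CMPs, the last from 16 alpha-type reads and the one before from 4. Single cells moved these ratios. Without the cell of most beta-type reads the excess was 9.23 times in the P2- MEPs and 41.7 times in the P2+ MEPs, and without the cell of most alpha-type reads it was 96.5 times in the P2+ MEPs and 2849 times in the P2- CMPs. Per stretch of each gene's own, with every cell kept, the ratios were 6.49, 26.3, 602.3 and 86.9 times. The beta-type excess was thus smaller by this scaling in all 4 populations. Stretches were counted on the longest transcript of each gene and without regard to mates, so the scaling does not restore missing reads. The part of missing reads in the excess was not tested.

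Summed, the 4 adult globins were at 80.0 CPM (76.8-83.2) in the P2- MEPs, 122.5 CPM (118.7-126.5) in the P2+ MEPs, 232.9 CPM (225.96-239.98) in the P2- CMPs and 121.7 CPM (118.1-125.3) in the P2+ CMPs. A single P2- MEP held 43.4% of the adult globin reads and a single P2+ MEP 35.3%, and the levels without these cells were 46.6 and 81.8 CPM. P2+ over P2- gave a log2 ratio of 0.62 (0.54-0.69) in MEPs, though ERCC reads as the denominator turned it to -0.0013, and of -0.94 (-0.998 to -0.88) in CMPs. For P2- CMPs over P2- MEPs it was 1.54 (1.47-1.61). For P2+ CMPs over P2+ MEPs it was -0.01 (-0.07 to 0.05), a sum that covers a log2 ratio of -7.52 for Hbb-bs and 3.62 for Hbb-bt. With ERCC reads as the denominator the median log2 ratio over all genes moved by -0.62 for P2+ over P2- MEPs, 0.33 for P2+ over P2- CMPs, -0.51 for P2- CMPs over P2- MEPs and 0.43 for P2+ CMPs over P2+ MEPs.

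The 7 globins were then read against all genes, a gene being counted when it had at least 10 reads over both populations and differed by at least 2-fold. For P2+ over P2- MEPs Hba-a1, Hbb-bh1 and Hbb-y were lower, where 12.5% of 15769 genes were, and 0 of the 7 were higher, where 20.4% were. Hba-a2 and Hba-x were at lower ratios too, but with 5 reads each in the P2+ MEPs they reached the minimum only through the P2- MEPs, so nothing is read from their count. The ratios of Hba-a1, Hbb-bh1 and Hbb-y stayed past 2-fold under each of the other scalings and without the highest cells. The value nearest to the limit was -1.07 for Hbb-y. The counting intervals of Hba-a1 (upper limit -0.79) and Hbb-y (upper limit -0.72) reached inside 2-fold. For P2+ over P2- CMPs neither Hbb-bs nor Hbb-bt was past 2-fold, where 14.7% of genes were lower and 17.4% higher. Hba-a1 reached the minimum only through its 16 reads in the P2+ CMPs, and the interval of its ratio includes 0.

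The gates were compared in the same way. For P2- CMPs over P2- MEPs Hbb-bs was lower (background 15.1%) and Hbb-bt was higher (background 25.8%). The other 5 globins had at most 2 reads in the P2- CMPs and reached the minimum only through the P2- MEPs, so nothing is read from their lower ratios. For P2+ CMPs over P2+ MEPs Hba-a1 and Hbb-bs were lower (background 16.5%) and Hbb-bt was higher (background 23.2%). Hbb-bh1 and Hbb-y had 0 reads in the P2+ CMPs, set to 3 reads per population, which makes their ratios bounds, and they too passed only through the MEPs. Hba-a2 and Hba-x had too few reads to be counted there.

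The number of different globins read in a cell fell from P2- MEPs to the other populations. Of 56 P2- MEPs, 3 had no globin read and 23 had reads of 3 or more of the 7 genes. Among 47 P2+ MEPs 10 had none and 6 had 3 or more. Among 27 P2- CMPs 10 had none and 2 had 3 or more, and among 42 P2+ CMPs 7 had none and 1 had 3 or more. The most in a cell was 6 of 7, in a P2- MEP. P2- MEPs had the lowest median of reads per cell.

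Genes that act with the globins were taken as a list of 24, of which 23 were found in the annotation, the globin chaperone Ahsp not being matched. Of the 23, 2 were lower by at least 2-fold in the P2+ than in the P2- MEPs and 1 was higher, where 12.5% and 20.4% of all genes were, and 4 were lower and 0 higher in the P2+ than in the P2- CMPs, where 14.7% and 17.4% were. One of the genes lower in the P2+ MEPs, Sox6, had 0 reads there and passed only through the P2- MEPs, and it is also the 1 gene higher in the P2+ CMPs than in the P2+ MEPs. The shares within the gates are near or below those over all genes. Between the gates 8 were lower and 0 higher in the P2- CMPs, beside 15.1% and 25.8% of all genes, and 12 lower and 1 higher in the P2+ CMPs, beside 16.5% and 23.2%. Klf1, the factor known to drive adult beta globin, was at 477.6 CPM in the P2- MEPs, 243.5 CPM in the P2+ MEPs, 87.4 CPM in the P2- CMPs and 4.59 CPM in the P2+ CMPs. Hbb-bs followed this order only between the gates, and Hbb-bt ran against it there. Gata1, the central factor of the red lineage, was at 265.9, 237.8, 102.8 and 43.6 CPM in the same order.

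Most heme synthesis genes were lower in the CMPs. Of the 8 enzymes, 5 were lower by at least 2-fold in the P2- CMPs than in the P2- MEPs and 5 in the P2+ CMPs than in the P2+ MEPs, with 0 higher in each. The backgrounds for these counts are those just given. Uros, an enzyme in the middle of the pathway, went the way of Hbb-bt, with a log2 ratio of 0.53 (0.38-0.67) for P2- CMPs over P2- MEPs and 0.36 (0.21-0.51) for P2+ CMPs over P2+ MEPs. Alad, which makes porphobilinogen, was at 857.4 CPM in the P2- MEPs and 142.7 CPM in the P2+ CMPs, and Cpox, a later enzyme of the pathway, at 513.0 CPM and 24.9 CPM. Alas2, the red cell form of the first enzyme, was the least abundant of the 8 at 1.08 CPM in the P2- MEPs and 4.18 CPM in the P2+ MEPs, with reads in 4 cells of each.

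**Figure D5:**
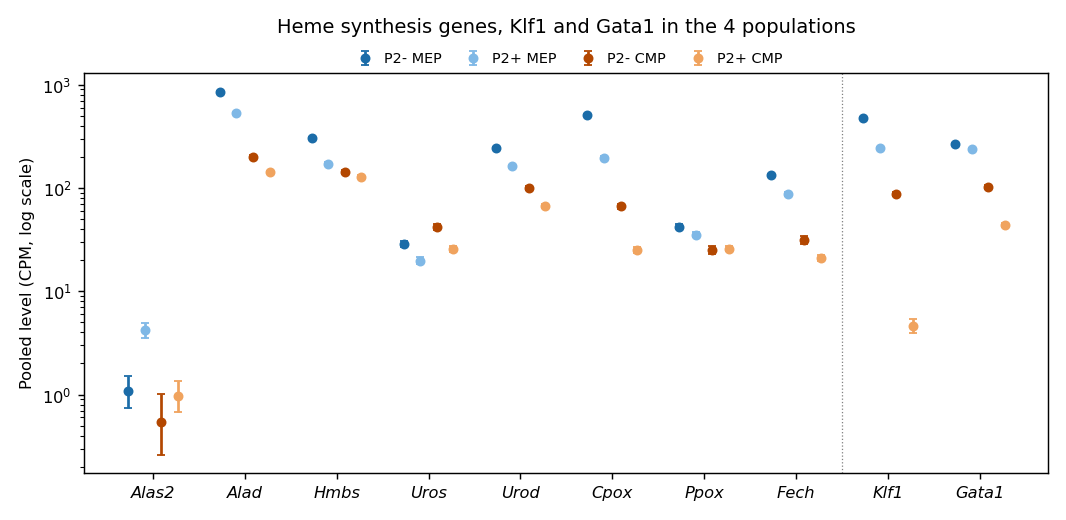
Pooled level in CPM (log axis) of 8 heme synthesis genes, Klf1 and Gata1 in the 4 populations, with exact 95% Poisson intervals from counting error. Klf1 falls from 477.6 CPM in the P2- MEPs to 4.59 CPM in the P2+ CMPs, and Alas2 lies below 5 CPM in all populations.

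The genes known from the switch between embryonic and adult globins had levels of their own. Bcl11a, a repressor of embryonic globins, was at 217.96 CPM in the P2- MEPs, 194.2 CPM in the P2+ MEPs, 146.0 CPM in the P2- CMPs and 98.0 CPM in the P2+ CMPs, so it was highest where the embryonic globins were. Sox6, which acts with Bcl11a, had 160 reads in 6 P2- MEPs (5.23 CPM), 0 reads in the P2+ MEPs, 40 reads in 1 P2- CMP (2.18 CPM) and 110 reads in 3 P2+ CMPs (3.03 CPM). Lin28b, a fetal regulator, was at 61.0 and 51.5 CPM in the P2- and P2+ MEPs and at 65.2 and 23.2 CPM in the P2- and P2+ CMPs.

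Relations to Klf1 were described within populations. Spearman's rho of Hbb-bs with Klf1 was 0.30 over 56 P2- MEPs, 0.37 over 47 P2+ MEPs and -0.34 over 27 P2- CMPs, the last with 3 cells that had a read of Hbb-bs. For Hbb-bt it was -0.02 and 0.13 there, and -0.68 over the P2- CMPs. With Cd34, Hbb-bt had a rho of 0.59 in the P2- CMPs and -0.0040 in the P2+ CMPs, and with the depth of a cell 0.29 and -0.36. These values describe cells of 1 pool and were given no test. Among 6698 genes with a pooled level of at least 20 CPM and a read in at least 25% of the 172 cells, those most like the summed adult globins were Ifitm1, Hmox2, Lsp1, Ebi3 and Adgrl4, with rho from 0.36 to 0.39. Within P2- MEPs they were Alkbh7, Alad, Tomm22, Psmd5 and Psph, with rho from 0.46 to 0.47 among 6222 genes.

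When the adult genes were taken apart, after the values were seen, the lists over all 172 cells separated. Most like Hbb-bs were Cited4, Blvrb, Klf1, Rfesd and Alad, with rho from 0.39 to 0.43. Most like Hbb-bt were Mycn, Ebi3, Adgrl4, Ifitm1 and Lyz2, with rho from 0.57 to 0.61. Ifitm1, for example, was at 1.14 CPM in the P2- MEPs and 369.6 CPM in the P2- CMPs. Cells of different populations enter these values, so they hold the difference between MEPs and CMPs.

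Granulocyte/monocyte markers were, like Hbb-bt, higher in both CMP populations than in both MEP populations. The 8 granulocyte/monocyte markers summed to 16.3 CPM in the P2- MEPs, 66.6 CPM in the P2+ MEPs, 435.4 CPM in the P2- CMPs and 700.2 CPM in the P2+ CMPs, with Elane, Ctsg, Csf1r and Csf3r at 0 in the P2- MEPs, and all 8 read in both CMP populations. Single cells ran from 0 to 146.4 CPM in the P2- MEPs and from 103.2 to 1853 CPM in the P2+ CMPs. The 8 megakaryocytic markers summed to 72.0, 514.1, 548.2 and 630.0 CPM in the same order, a difference that lay mainly between the MEP populations, where Hbb-bt was at 9.51 and 9.79 CPM, with Pf4, Gp9 and Gp1bb at 0 in the P2- MEPs. Of 7 macrophage markers Adgre1, C1qa, C1qb, C1qc and Cd5l were at 0 in all populations, and the sum was at most 8.84 CPM. The 6 hepatocyte markers summed to 10.6 CPM in the P2- MEPs, 10.4 CPM in the P2+ MEPs, 24.9 CPM in the P2- CMPs, where Hbb-bt was highest, and 13.6 CPM in the P2+ CMPs, with Serpina1a at 0 in all. The part of these markers in the globin levels was not tested. Markers of late erythroblasts, the cells that make most hemoglobin, summed to 59.2 CPM in the P2- MEPs, 32.1 CPM in the P2+ MEPs, 12.8 CPM in the P2- CMPs and 4.76 CPM in the P2+ CMPs, an order that the summed embryonic globins shared and Hbb-bs and Hbb-bt did not. Among the 3 wells removed by the cell filters, those with 63 and 765 mouse reads had 0 globin reads.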

How the data were processed

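Single cells were sequenced with a modified Smart-Seq2 protocol. Per the labels, the authors trimmed the reads with Trimmomatic 0.36, aligned them with STAR 2.4.2a to GRCm38 and the ERCC sequences, counted them with HTSeq 0.6.1p1 on GENCODE M12 exons without strand, and deposited raw counts. Unmapped reads are given in percent as the authors deposited them. Multiply aligned and ambiguous reads count for no gene. Here cells with under 250000 reads, over 25% unmapped reads or over 15% ERCC reads were removed, as the article did, and no doublet caller was run. Counts were summed per population and divided by reads on mouse genes (CPM). Intervals were exact Poisson, conditional binomial for ratios and Clopper-Pearson for shares. 0 reads were set to 3 per population for bounds, and both populations at 3 or fewer gave no ratio. Calculations used Python 3.11.15 with scipy 1.17.1, and R 4.3.3 with DESeq2 1.42.0 and edgeR 4.0.16 for other scalings, and were tested on simulated data. Gene coordinates and transcripts came from GENCODE vM21, a later release than that counted. The members, gene lists and tests were chosen with earlier results of these data known. Named genes were the globins, the list of 24 partner genes, cell type markers and the 5 genes most like the summed adult globins. Those most like Hbb-bs or Hbb-bt were added after their values were seen.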

Additional observations from a re-analysis of the deposited data

Results flagged for a closer look

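The summed adult globins went opposite ways between P2+ and P2- cells in the 2 gates, with a log2 ratio of 0.62 in MEPs and -0.94 in CMPs, and this difference was not tested. With ERCC reads as the denominator the MEP value was -0.0013. Reads were also found outside the values used above. A P2+ MEP well removed for its unmapped reads held 30 reads of Hbb-bs (95.1 CPM) and 0 reads of the other 6 globins. The pseudogene Hba-ps4 had 15 reads, all in 1 P2+ MEP.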

How the results depend on the processing

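No paired analysis was possible because each population is 1 pooled sample without a replicate. Of 23 recomputed ratios of the summed adult globins 14 stayed within the reported counting interval. The P2+ over P2- value for MEPs turned to -0.0013 with ERCC reads as the denominator and was 0.81 without the cell of highest level in each population. For CMPs it was -0.86 with edgeR TMM factors, -0.61 with ERCC reads, -0.54 with equal weight per cell and -0.66 without the highest cells. For P2- CMPs over P2- MEPs it was 1.44 with TMM factors, 1.03 with ERCC reads and 1.90 without the highest cells. The embryonic share of beta-type reads was 31.96% in P2- MEPs and 15.4% in P2+ MEPs with equal weight per cell, and 12.5% and 1.21% without the highest cells. The cause of these moves was not tested. Among 142 recomputed ratios of single globins 127 stayed within the interval and 15 moved, and of 35 recomputed bounds, which have no interval, 14 moved by 0.1 or more on the log2 scale. Of the ratios whose interval excluded 0, and of the bounds, 0 changed sign. For shares of cells 93 of 112 stayed within theirs, the other 19 moving with the thinning depth or the minimum of 5 reads. Under a minimum of 100 reads the share of all genes past 2-fold fell by more than 1.5 times in 5 of 8 counts. Levels under about 0.1 CPM rest on 3 reads or fewer in most populations.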
